A study of Mus musculus with 6 samples.

Results

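Described here are 10 genes of interferon-inducible GTPases, out of 54393 genes in a table of adult mouse muscle. They were matched by gene symbol in GENCODE M21, and they were chosen by their values in this same comparison of Dock3 KO with WT, and by their family: the very large inducible GTPase Gvin1 and its copy Gm4070, the guanylate-binding proteins Gbp2, Gbp3, Gbp6 and Gbp7, and the immunity-related GTPases Irgm1, Irgm2, Igtp and Iigp1. All 10 were in the table and all 10 passed the filter on low values, an average over the 6 samples of 10 normalized counts or more, Gvin1 only through its Dock3 KO values. The measurements come from RNA sequencing of the tibialis anterior, a muscle of the lower leg, in n = 3 wild-type (WT) muscles, titled C57 with the numbers 1, 3 and 4, and n = 3 muscles labelled Dock3 KO, numbered 1, 2 and 3. Dock3 encodes an activator of the small GTPase Rac. Both groups are labelled adult, and no treatment is named. The strain of the Dock3 KO mice, their sex and how the allele was made are not given in the sources used here. Values are given throughout in the order WT 1, 3, 4 and Dock3 KO 1, 2, 3. For Dock3 itself they were 169, 161 and 118 normalized counts across the WT muscles, against 22.4, 1.78 and 1.54 across the Dock3 KO muscles. Nothing says whether the 3 muscles of a group came from separate animals, so p-values measure only the spread between these muscles.

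Interferons are cytokines that cells release on infection. Type II interferon (interferon gamma) signals through a receptor pair and the kinases Jak1 and Jak2, and acts on promoters that hold gamma-activated sequences. Type I interferons act through another receptor pair and on promoters that hold the interferon-stimulated response element. Both switch on families of large GTPases. Guanylate-binding proteins coat and damage membranes that enclose bacteria or parasites. Immunity-related GTPases fall into effectors, such as Iigp1, which break such membranes, and regulators, such as Irgm1, Irgm2 and Igtp, which sit on the cell's own membranes and keep the effectors off them. The very large inducible GTPases have a single giant coding exon, and little is known of what they do.

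Gvin1 and Gm4070 are the members whose values turn on their sequence, so their transcripts are shown first. GENCODE M21 (GRCm38) places Gvin1 (ENSMUSG00000045868) at chr7:106156556-106215326 and Gm4070 (ENSMUSG00000078606) at chr7:105895139-105953967, both on the minus strand. In both genes the 201 transcript has 8795 bases in 2 exons and a coding sequence of 7281 bases, stop codon left out. The 2 coding sequences differ at 3 positions, with 0 gap bases, and the longest identical run has 3098 bases. Counted from 1 at the first coding base, with the base of Gvin1 first, the differences are G1805T, G4904A and C7075T. Each is printed within 41 bases of the coding strand, with the differing base in capitals.
Gvin1 at G1805T, chr7:106163436-106163476, minus strand: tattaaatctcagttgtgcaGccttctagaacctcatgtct
Gm4070 at G1805T, chr7:105902019-105902059, minus strand: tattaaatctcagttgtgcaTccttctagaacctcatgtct
Gvin1 at G4904A, chr7:106160337-106160377, minus strand: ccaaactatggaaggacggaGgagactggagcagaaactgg
Gm4070 at G4904A, chr7:105898920-105898960, minus strand: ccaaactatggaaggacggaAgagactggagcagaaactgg
Gvin1 at C7075T, chr7:106158166-106158206, minus strand: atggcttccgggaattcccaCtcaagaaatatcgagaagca
Gm4070 at C7075T, chr7:105896749-105896789, minus strand: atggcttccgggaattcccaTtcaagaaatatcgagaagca

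How much sequence is particular to a gene was measured as the share of its stretches of 31 bases (31-mers), over all its annotated transcripts, that occur in the transcripts of no other gene. For Gvin1 this was 31 of 9005, or 0.344%. All 31 cover the C7075T position. The 31-mers of Gvin1 over G1805T and over G4904A also occur in pseudogenes of the same family, among them Gm8979 and Gm8989. Those of Gm4070 over G1805T also occur in the pseudogene 9130208D14Rik, which did not pass the filter on low values. This pseudogene gave 8.09, 17.1 and 15.8 normalized counts across the WT muscles, against 1.35, 2.96 and 7.05 across the Dock3 KO muscles. For Gm4070 the share was 1.41% (131 of 9300), and 95.8% of its 31-mers occur in Gvin1. Reads from either gene can therefore be told apart at few positions, and the division of reads between the 2 rows is uncertain.

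**Figure D1:**
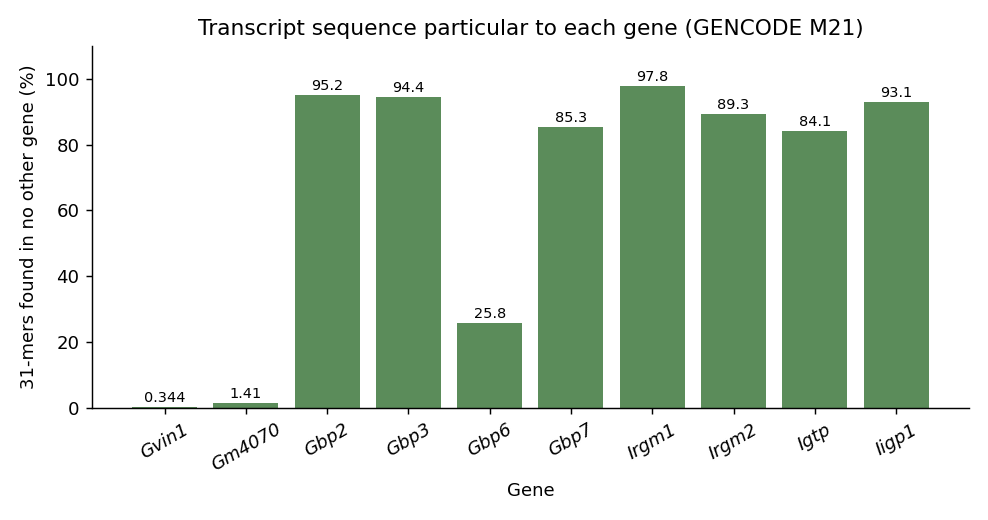
Percent of the 31-mers of each member's annotated transcripts that occur in no other gene of GENCODE M21, 1 bar per gene. The bars of Gvin1 (0.344%) and Gm4070 (1.41%) are close to 0, that of Gbp6 stands at 25.8%, and those of the other 7 members lie between 84.1% and 97.8%.

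Among the other members, only Gbp6 had a low share of sequence of its own, 25.8%. It shares 67.8% of its 31-mers with Gm43302, a gene of the same family whose span overlaps it. The shares were 95.2% for Gbp2, 94.4% for Gbp3, 85.3% for Gbp7, 97.8% for Irgm1, 89.3% for Irgm2, 84.1% for Igtp and 93.1% for Iigp1. Transcripts counted as near-identical copies when they matched at 95% or more across 50% or more of the shorter one. Gvin1 had copies in Gm4070 (99.97% over 9005 bases), Gm8979 (96.2%) and Gm8989 (96.0%). Gm8979 was listed at no more than 14.1 normalized counts in any sample and Gm8989 at no more than 4.21, and neither passed the filter on low values. Gbp7 had a copy in Gm43802, whose 637 bases match it at 100% and which was listed at no more than 15.3 normalized counts in any sample.

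Gvin1 gave 0, 15.5 and 14.2 normalized counts across the WT muscles, against 251, 502 and 800 across the Dock3 KO muscles. Every Dock3 KO value lay far above every WT value, and the Dock3 KO values spread more than 3-fold among themselves. The WT mean was 9.90 ± 8.60 and the Dock3 KO mean 518 ± 275 (SD, n = 3 muscles per genotype), which makes a ratio of 52.3. The difference of Dock3 KO minus WT was 6.21 (standard error, SE, 0.935) on the scale of log2(normalized count + 1). Without WT replicate 1, the sample at 0, it was 4.88. Gvin1 was chosen with this difference in view, so it is given as a description and without a test.

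Gm4070 gave 431, 346 and 393 normalized counts across the WT muscles, against 306, 421 and 315 across the Dock3 KO muscles. The ranges of the genotypes overlapped, and the means were 390 ± 42.6 and 347 ± 64.0 (SD, n = 3 each). Its log2 difference was -0.18 (SE 0.176). Of the near-identical pair, one row was thus near 0 in WT and far higher in Dock3 KO, and the other overlapped between the genotypes.

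Because the division of reads is uncertain, both rows were also summed, an alternative chosen after their values were seen. The sum came to 431, 361 and 408 normalized counts across the WT muscles, against 557, 923 and 1115 across the Dock3 KO muscles. All Dock3 KO sums lay above all WT sums, with means of 400 ± 35.4 and 865 ± 284 (SD, n = 3 each) and a ratio of 2.16. The log2 difference of the sum was 1.06, against 6.21 for the Gvin1 row alone. Of the sum, the part listed under Gvin1 was 0%, 4.29% and 3.48% in WT and 45.1%, 54.4% and 71.7% in Dock3 KO. Both the summed level and the share assigned to Gvin1 were thus higher in every Dock3 KO muscle. What part the assignment of reads has in the difference of the Gvin1 row was not tested.

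**Figure D2:**
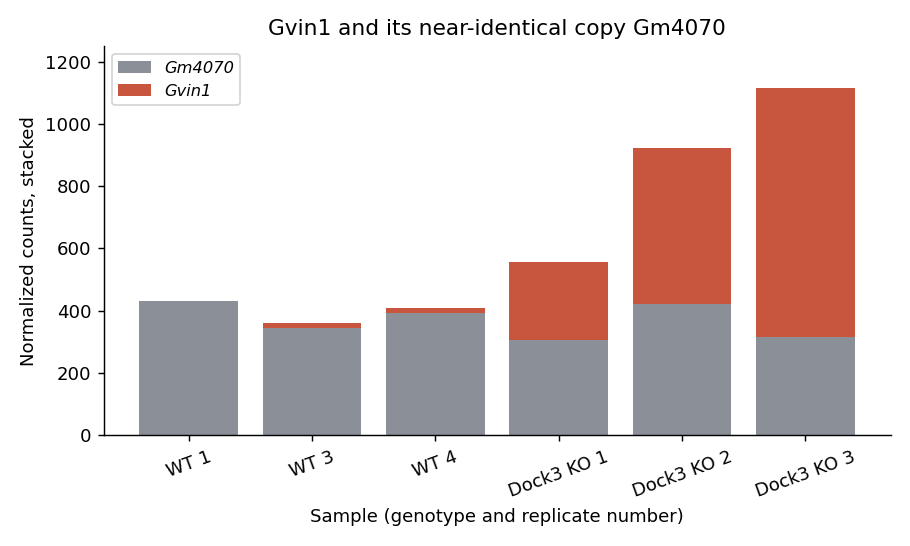
Normalized counts of Gm4070 (grey) and Gvin1 (red) stacked for each of the 6 samples, with the genotype and replicate number on the horizontal axis. The grey part stays between 306 and 431 in all samples, and the red part is at most 15.5 in WT and between 251 and 800 in Dock3 KO.

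Gvin1 and Gm4070 belong to a cluster of related genes on chromosome 7. From Gm4070 to the pseudogene Gm1966, over 709 kb, GENCODE M21 lists 15 genes that are in the table, 11 of them pseudogenes and 2 of them protein-coding. In total, 4 of the 15 were listed at 0 in every sample and 7 passed the filter on low values. Besides Gvin1 and Gm4070, these were Gm18852, Gm18853, Gm4759, Gm8995 and Gm1966. The pseudogene Gm18853 (106186404 to 106189999) lies in an intron of Gvin1, and Gm18852 (105925000 to 105928592) lies within Gm4070, where it overlaps an exon of the transcript Gm4070-203 on the same strand. These nested pseudogenes are near-identical to each other, with 99.97% identity over 3592 aligned bases. Gm20663, antisense to Gm4070, was listed at no more than 5.41 normalized counts in any sample.

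No WT muscle had a value above 0 for Gm18853, and the Dock3 KO muscles gave 34.5, 55.8 and 31 normalized counts. It passed the filter on low values only through Dock3 KO, so a gene listed at 0 in WT could enter the fit only by being higher there. Its adjusted p was 0.00503 (limma with Benjamini-Hochberg adjustment over all genes tested, threshold 0.05). The call was lost without Dock3 KO replicate 2 (adjusted p = 0.0982), without Dock3 KO replicate 3 (0.0508), with the replicate number as a block (0.0522) and with log2 Gm42418 as a covariate (0.219), all with limma. Gm18852 gave 48.8, 26.0 and 42.3 across the WT muscles, against 0, 0 and 51.7 across the Dock3 KO muscles. Its ranges overlapped, and its limma adjusted p was 0.392. Summed, the nested pair stood at 48.8, 26.0 and 42.3 across the WT muscles, against 34.5, 55.8 and 82.7 across the Dock3 KO muscles, with overlapping ranges. Only 4 of the 3566 31-mers of Gm18853 (0.112%) occur in no other gene. Of the nested pair, the row within Gvin1 was listed above 0 in Dock3 KO alone, and the row within Gm4070 was at 0 in 2 of the 3 Dock3 KO muscles. In the host pair, Gm4070 was listed between 306 and 431 in all 6 muscles.

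The pseudogenes farther along the cluster have more sequence of their own, 62.2% of 31-mers for Gm1966 and 66.2% for Gm8995. Gm1966 gave 5.40, 0.855 and 0 across the WT muscles, against 44.8, 16.3 and 47.9 across the Dock3 KO muscles, without overlap. Its WT mean was 2.09, so like Gm18853 it passed the filter on low values only through its Dock3 KO values. It missed the threshold (limma adjusted p = 0.0747), and nothing is read from that value. Gm8995 gave 176, 119 and 158 across the WT muscles, against 210, 182 and 265 across the Dock3 KO muscles. Its ranges did not overlap either, and its log2 difference of 0.54 had a limma adjusted p of 0.425. Gm4759, between these and Gvin1, overlapped between genotypes, with a WT mean of 13.2 and a Dock3 KO mean of 11.9.

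**Figure D3:**
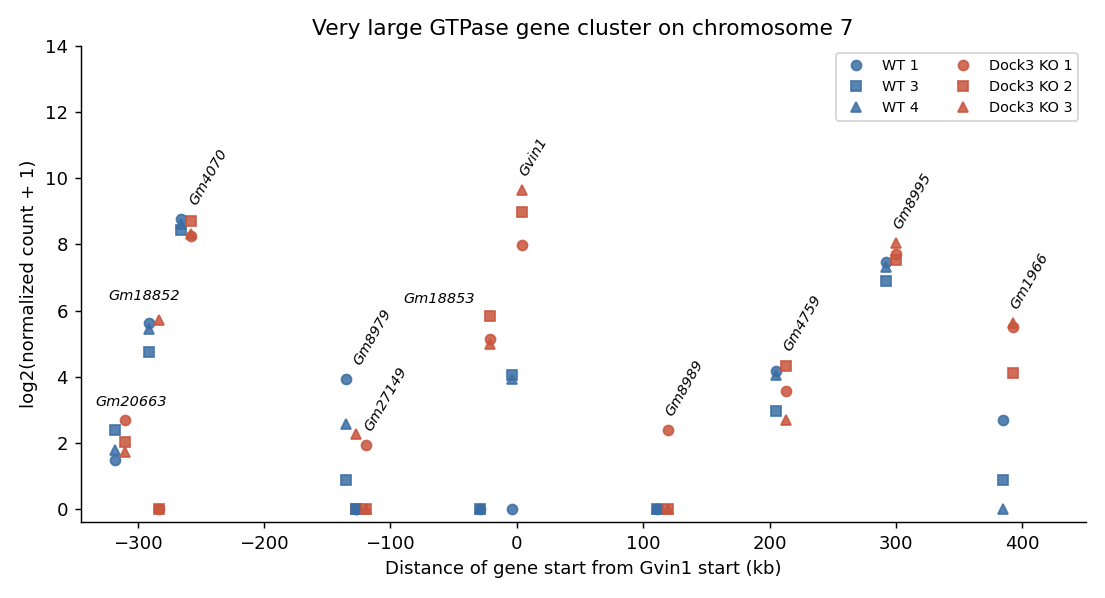
Values of the 11 cluster genes listed above 0 in at least 1 sample, as log2(normalized count + 1) on the vertical axis, against the distance of each gene's start from that of Gvin1 in kb. Blue points are the WT samples and red points the Dock3 KO samples, with the replicate number by shape, and the points of a gene are set slightly apart by genotype. Red points lie above all blue points at Gvin1, Gm18853, Gm8995 and Gm1966.

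The 4 guanylate-binding proteins among the members are encoded in groups on chromosomes 3 and 5. Gbp7 (142530342 to 142550149), Gbp3 (142560026 to 142573209) and Gbp2 (142620602 to 142638008) follow each other on the plus strand of chromosome 3, and Gbp6 (105270702 to 105293698) is on the minus strand of chromosome 5. Gbp2, which gathers on the vacuoles of parasites, gave 170, 179 and 192 normalized counts across the WT muscles, against 158, 165 and 169 across the Dock3 KO muscles. All Dock3 KO values lay below all WT values, but the means, 180 ± 11.1 and 164 ± 5.53 (SD, n = 3 each), were close, with a log2 difference of -0.13 (SE 0.172).

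Gbp3 was the member other than Gvin1 that was higher in Dock3 KO. It gave 50.6, 37.4 and 52.2 across the WT muscles, against 76.4, 59.3 and 62.9 across the Dock3 KO muscles, without overlap. The means were 46.7 ± 8.11 and 66.2 ± 9.06 (SD, n = 3 each), and the log2 difference was 0.50 (SE 0.277). Gbp6 gave 237, 232 and 163 across the WT muscles, against 185, 163 and 203 across the Dock3 KO muscles. Gbp7 gave 250, 273 and 221 across the WT muscles, against 185, 201 and 293 across the Dock3 KO muscles. Both overlapped between genotypes, with log2 differences of -0.18 and -0.16. Since 80.8% of the 31-mers of Gbp10 occur in Gbp6, their sum was taken as well, and it stood between 474 and 501 in WT and between 440 and 540 in Dock3 KO. This sum leaves out Gm43302, which holds 67.8% of the 31-mers of Gbp6, so it does not cover all shared reads. Gm43302 gave 124, 157 and 91.2 across the WT muscles, against 109, 170 and 121 across the Dock3 KO muscles, with overlap.

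The immunity-related GTPases among the members lie on chromosomes 11 and 18. Irgm1 (48861968 to 48871683, minus strand of chromosome 11) encodes a regulator that also takes part in autophagy. It gave 383, 340 and 270 normalized counts across the WT muscles, against 246, 211 and 282 across the Dock3 KO muscles. Its Dock3 KO values lay mostly below WT, with WT replicate 4 inside the Dock3 KO range, and its log2 difference of -0.42 (SE 0.190) was the lowest of the 10 members. Irgm2 (58199618 to 58222782) and Igtp (58199556 to 58207591), regulators of the same subgroup, overlap each other on the plus strand of chromosome 11. Irgm2 gave 382, 383 and 299 across the WT muscles, against 292, 326 and 387 across the Dock3 KO muscles, with overlap and a log2 difference of -0.08.

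Igtp was the tightest of these genes, at 226, 211 and 206 across the WT muscles, against 186, 192 and 181 across the Dock3 KO muscles. All Dock3 KO values were below all WT values, with a log2 difference of -0.20 (SE 0.164). Igtp and Irgm2 overlap on the same strand, and 15.9% of the 31-mers of Igtp occur in Irgm2, so part of their reads can be assigned to either. Iigp1 (60376027 to 60392634, plus strand of chromosome 18), the effector among the members, gave 159, 136 and 142 across the WT muscles, against 78.7, 121 and 192 across the Dock3 KO muscles. The Dock3 KO values of Iigp1 lay on both sides of the WT range, with a standard deviation of 57.4 against 12.2 in WT.

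**Figure D4:**
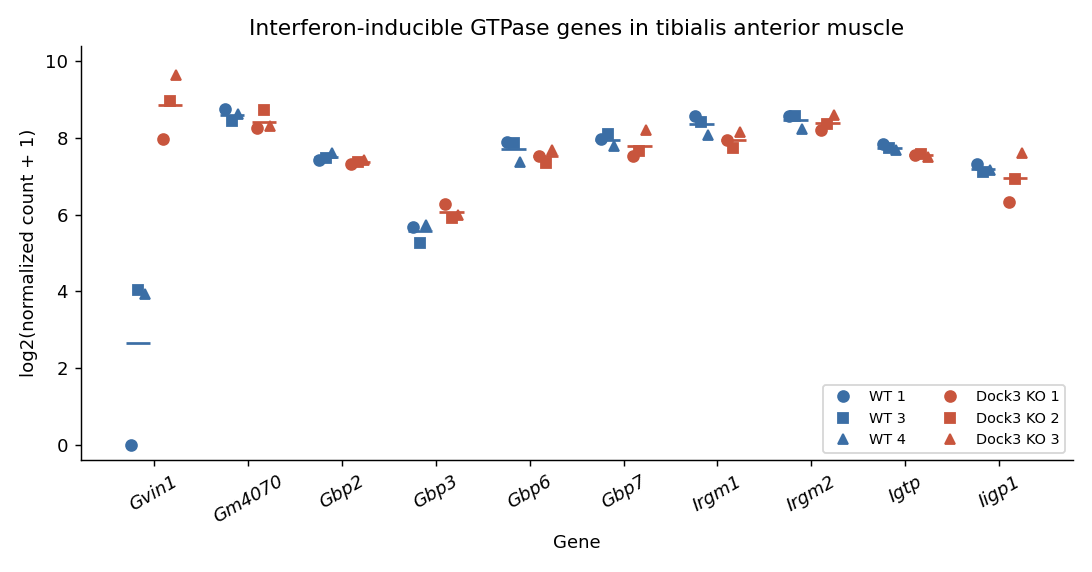
Values of the 10 members in each of the 6 samples, as log2(normalized count + 1). Blue marks are WT, red marks are Dock3 KO, the shape gives the sample within its group and each line is the group mean. Gvin1 separates widely, at 0 to 15.5 normalized counts in WT and 251 to 800 in Dock3 KO, and the other 9 members differ by -0.42 to 0.50 on the log2 scale.

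Over the 10 members, the median log2 difference was -0.17, beside -0.01 over all 16031 genes tested. Without Gvin1, the 9 differences ran from -0.42 to 0.50, with 8 below 0 and 1 above. With log2 Gm42418 as a covariate 5 of the 9 were below 0, and without Dock3 KO replicate 1 it was 6 of 9. The ranges of the genotypes did not overlap for 4 of the 10 members, where 16.2% of all genes tested did not overlap. Above WT lay 2 of them, Gvin1 and Gbp3, where 7.6% of all genes did, and below WT 2, Gbp2 and Igtp, where 8.65% did. The members were chosen with this comparison known, so nothing is read from these counts, and no member is given a test. Among the 9 members without Gvin1, Dock3 KO replicate 1 held the lowest value of 5 and WT replicate 1 the highest of 4.

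Dock3 KO replicates 1 and 2 also stand apart in the share of their signal taken by Gm42418. Its share of the sample's sum was 13.4% and 14.6% there, against 2.29% to 2.87% for the other 4 samples. Lars2 showed the same split, at 1493370 and 1887550 normalized counts there, against 189164 to 250814 for the other 4 samples. Only Gm42418 was used as a covariate. The sums were 23520000 to 33390000 normalized counts per sample, and from the lowest values the depth was about 21650000 to 32460000 reads. Gvin1 was highest in Dock3 KO replicate 3, whose Gm42418 share was 2.87%. With log2 Gm42418 as a covariate the log2 difference of Gvin1 was 7.29.

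The level of each member was also compared per kilobase of its longest annotated transcript, as the mean of the WT samples. In this order came Igtp at 106 normalized counts per kb, Irgm2 at 100.5, Irgm1 at 86.3, Gbp2 at 71.7, Gbp6 at 49.7, Iigp1 at 46.7, Gbp7 at 44.2, Gm4070 at 43.3, Gbp3 at 17.4 and Gvin1 at 1.1. The WT ranges of neighbours in this order overlapped from Igtp to Gbp2 and from Gbp6 to Gm4070. They did not overlap between Gbp2 and Gbp6, between Gm4070 and Gbp3, or between Gbp3 and Gvin1. The regulators of the immunity-related group were thus the highest members in WT muscle per length. In Dock3 KO, the mean of Gvin1 stood at 57.5 per kb, between Irgm1 at 64.3 and Gbp6 at 43.3. Its Dock3 KO values ran from 27.9 to 88.8 per kb, across the means of both, so this place is not fixed. It also rests on the uncertain division of reads with Gm4070. Muscle is a mixed tissue, and in bulk samples fewer cells of a type and less RNA per cell cannot be told apart.

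Promoter sequences show what the members share outside the coding region. RefSeq promoters (GRCm38.p6, from 250 bases before to 50 after the gene start) were matched for 6 of the 10 members, Gbp2, Gbp3, Gbp7, Irgm1, Irgm2 and Igtp, with 7 windows. Gvin1, Gm4070 and Gbp6 had no match, and Iigp1 was left out without being searched. The windows were searched on both strands for the core of the interferon-stimulated response element, which is TTTC, any 2 bases and TTTC again, and for the core of the gamma-activated sequence, TTCNNNGAA. The first was found in all 6 genes and the second in 3, Gbp7, Irgm2 and Igtp. Of all 32851 promoter windows of this length, 3.44% held the first motif, 8.3% the second and 0.454% both. The matches are shown with a few bases on each side, 5′ to 3′ on the strand of the gene, with the motifs in capitals. In Gbp3 and in Irgm1 a pair of matches overlaps.
Gbp2, chr3:142620592-142620625, plus strand: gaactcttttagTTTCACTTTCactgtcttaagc
Gbp3, chr3:142559987-142560026, plus strand: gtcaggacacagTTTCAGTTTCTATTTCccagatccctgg
Gbp7, chr3:142530218-142530304, plus strand: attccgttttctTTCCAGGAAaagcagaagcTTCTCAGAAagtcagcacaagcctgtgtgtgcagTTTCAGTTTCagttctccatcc
Irgm1, chr11:48871423-48871462, minus strand: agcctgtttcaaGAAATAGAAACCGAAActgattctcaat
Irgm2, chr11:58214890-58214934, plus strand: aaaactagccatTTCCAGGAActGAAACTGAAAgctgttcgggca
Igtp, chr11:58199499-58199543, plus strand: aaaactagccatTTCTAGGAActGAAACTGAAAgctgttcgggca

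The stretches of Igtp and Irgm2 are identical in 44 of 45 bases. Counted from the first base shown, with the base of Igtp first, the difference is T16C, inside the gamma-activated sequence core. In both genes this core is followed closely by the response element. In the other inducible GTPases with a RefSeq promoter, those on chromosome 18 left out, 7 of 9 genes held the response element core and 5 of 9 held both motifs. A match is a run of letters and does not show that a factor binds there. All 6 members with a matched response element had log2 differences between -0.42 and 0.50 in Dock3 KO muscle.

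The other genes of the pathway were taken from lists that leave out the members. Of 25 other interferon-inducible GTPases, 24 were in the table and 17 passed the filter. Past the adjusted p of 0.05 (limma) lay 1 of these 17 in the higher direction, Gm18853, where 0.443% of all genes tested passed, and 0 in the lower direction, where 0.586% passed. Over both directions 1.03% of all genes tested passed. Gm18853 entered the fit only through its Dock3 KO values and its sum with Gm18852 overlapped between genotypes, so the count is no sign of a rise among these GTPases. The count was 0 under 5 of the alternatives, the 4 named above for Gm18853 and a minimum mean of 50, where it was not tested. It was 2, with Gm1966 added, without the filter on low values and without WT replicate 1. The median log2 difference of the 17 was -0.20. Gbp5, which takes part in inflammasome activation, gave 82.9, 93.9 and 113 across the WT muscles, against 48.2, 44.2 and 51.8 across the Dock3 KO muscles. All its Dock3 KO values were below all WT values, with a log2 difference of -0.98, and it missed the threshold (limma adjusted p = 0.140). Tgtp1 and Tgtp2, effectors of the immunity-related group with transcripts 99.75% identical, summed to 208, 96.1 and 84.5 across the WT muscles, against 69.7, 129 and 139 across the Dock3 KO muscles, with overlap.

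Upstream of these genes, 0 of 18 tested genes for interferon receptors and signalling passed the threshold with limma, where 1.03% of all genes tested did, and 1 had an unadjusted p under 0.05, where 10.5% of all genes tested did. Their median log2 difference was -0.06. The smallest p was that of Ifnar2, a subunit of the type I interferon receptor. It gave 162, 206 and 202 across the WT muscles, against 127, 108 and 123 across the Dock3 KO muscles, a log2 difference of -0.66 with a limma adjusted p of 0.213. Jak2, the kinase on the interferon gamma receptor, followed with means of 1417 and 1133 and a limma adjusted p of 0.513. Ifng, the gene of interferon gamma itself, was listed at no more than 1.67 normalized counts in any sample, and Ifnb1 at 0 in all 6.

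Downstream, 0 of 33 tested interferon-stimulated genes outside the GTPase families passed with limma (1.03% of all genes tested), and 3 had an unadjusted p under 0.05, a share near the 10.5% of all genes tested. Their median log2 difference was -0.10, with 16 above 0 and 17 below. Rsad2, which encodes the antiviral protein viperin, gave 35.1, 57 and 69.7 across the WT muscles, against 162, 78.8 and 89.5 across the Dock3 KO muscles. Its ranges did not overlap, and its log2 difference of 0.997 missed the threshold (limma adjusted p = 0.324). Eif2ak2, the RNA-activated kinase PKR, gave 269, 104 and 137 across the WT muscles, against 82.8, 98.2 and 85.7 across the Dock3 KO muscles, with a limma adjusted p of 0.404.

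Of 11 antigen-processing genes, 0 passed with limma (1.03% of all genes tested) and 2 had an unadjusted p under 0.05 (10.5% of all genes tested). Their median log2 difference was -0.37, beside -0.01 over all genes tested. Below 0 were 9 of 11, where 51.0% of all genes tested were. B2m, the light chain of MHC class I molecules, gave 1480, 1499 and 1958 across the WT muscles, against 1320, 1229 and 1115 across the Dock3 KO muscles (limma adjusted p = 0.318). Erap1, which trims peptides for them, gave 731, 612 and 602 across the WT muscles, against 394, 593 and 450 across the Dock3 KO muscles (limma adjusted p = 0.392). Of 10 genes of the autophagy conjugation system, which helps to bring the GTPases to membranes, 0 passed with limma (1.03% of all genes tested) and 0 had an unadjusted p under 0.05 (10.5%), with a median log2 difference of -0.04. Gabarapl1 and Atg7 had the smallest p there, with log2 differences of -0.29 and -0.31.

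**Figure D5:**
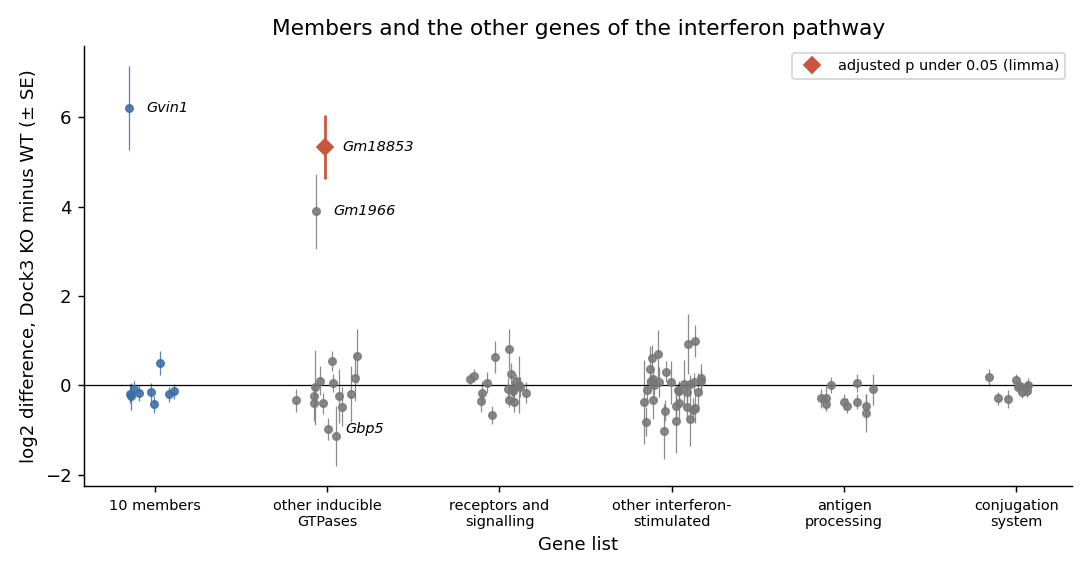
Log2 difference of Dock3 KO minus WT, with its standard error, for the members (blue) and for the tested genes of 5 lists of the interferon pathway (grey), 1 point per gene. The red diamond, Gm18853 at 5.33, is the only gene of the 5 lists past an adjusted p of 0.05 (limma), and members carry no test. Gm18853 and Gm1966 passed the filter on low values only through their Dock3 KO values, so they could enter only by being higher there.

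The genes whose pattern over the 6 samples was most like that of Gvin1 were sought by the root-mean-square distance between log2 values centred on each gene's mean. Gm16867 came first at a distance of 1.11. It gave 0, 0.747 and 1.49 across the WT muscles, against 110, 94.5 and 111 across the Dock3 KO muscles. Cd209a, a lectin gene of dendritic cells, followed at 1.30, with 0, 9.60 and 5.16 across the WT muscles, against 54.2, 72.2 and 54.0 across the Dock3 KO muscles. The pseudogene Hmgb1-ps8 stood at 1.36, Gm10600 at 1.41 and the pseudogene Gm5859 at 1.42. Gm10600 and Gm5859 were listed at 0 in all WT samples. None of the 5 is on chromosome 7, and none belongs to the pathway lists. The choice picks genes that separate the genotypes widely.

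Markers of cells that can express these GTPases were read beside them. Macrophage markers, all 10 of which passed the filter, summed to 6402 to 7158 normalized counts in WT and 5449 to 6317 in Dock3 KO, without overlap. Of these 10, 0 passed the threshold with limma (1.03% of all genes tested) and 1 had an unadjusted p under 0.05 (10.5%). That sum holds the means of Lyz2, the most abundant, 2329 in WT and 1787 in Dock3 KO. Taken singly, 2 of the 10 did not overlap between genotypes, where 16.2% of all genes tested did not. Log2 differences were below 0 for 8 and above 0 for 2, Cd163 and Fcgr1. Endothelial markers summed to 5119 to 6613 in WT and 5037 to 6293 in Dock3 KO. With limma, 0 of 8 passed the threshold (1.03% of all genes tested) and 0 had an unadjusted p under 0.05 (10.5%). The 8 T cell markers summed to 14.7 to 32.3 in WT and 17.4 to 37.4 in Dock3 KO. The 6 natural killer cell markers summed to 1.89 to 12.2 in WT and 11.7 to 20.8 in Dock3 KO, with overlap. Of these 6, Klrk1 had the highest mean in both groups, 3.89 in WT and 8.34 in Dock3 KO, and Klrb1c was lower in Dock3 KO. With 1 read worth about 0.775 to 1.53 normalized counts, such values are near the floor. No T cell or natural killer cell marker passed the filter on low values. B cell markers summed to 33.9 to 46.9 in WT and 19.8 to 97.5 in Dock3 KO. Of 7 fibroblast markers 2 rose, Col3a1 and Col1a1 (limma adjusted p of 0.0168 and 0.0228), where 0.443% of all genes tested were called higher, while the median log2 difference of the 7 was -0.23. The summed list stood at 29492 to 31512 in WT and 32149 to 38368 in Dock3 KO. That sum holds the means of Col1a1, 3147 in WT and 7882 in Dock3 KO, and of Col3a1, 3630 and 6598. Of the 7 log2 differences, 3 were above 0 and 4 below, and Dcn, the most abundant, had means of 18572 and 15521.5. The sum is thus no sign of a rise across the fibroblast markers. Muscle fibre markers such as Acta1 were abundant in all 6 samples, at 273298 to 375619 normalized counts for Acta1. The part of these cells in the values of the members was not tested.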

How the data were processed

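The values are those of 1 table that the authors deposited, with 1 column for each of the 6 samples. The deposited values are normalized counts, treated as a signal per gene because they are not whole numbers. The labels list FastQC, Trim Galore 0.4.5, Salmon 0.12.0, DESeq2 1.22.1 and R 3.5.3 with mm10 and GRCm38, per the submitters' processing notes, without their roles. Libraries were stranded, depleted of ribosomal RNA and read in pairs, per the labels' protocols. Whether counting used strand, and how reads matching several genes were assigned, is not given in the sources used here. Only 16.4% to 24.4% of low values were whole multiples of the value of 1 read (tolerance 0.01), so count models were not used, and depth gives no counting interval.

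Values were turned into log2(normalized count + 1), and genes with a mean of at least 10 were compared with limma 3.58.1 in R 4.3.3 (prior variance following mean expression, no covariate, Benjamini-Hochberg over 16031 genes, threshold 0.05). The fit was tested on simulated data. Symbols and positions are those of GENCODE M21, 1-based. Copies were sought with blastn 2.17.0, and 31-mers were compared on the transcript strand. The members and lists were chosen with earlier results of these data known. Genes named are the members, Dock3, the genes of each list past the threshold or, where none is, the 2 with the smallest p, the 5 nearest to Gvin1 in profile, and near-identical copies. Gbp5, Gm1966, Gm8995, Gm4759, Gm18852, 9130208D14Rik, Tgtp1, Tgtp2, Ifng, Ifnb1, Gm42418, Lars2 and the marker genes were picked for naming with their values known. A search for a nucleotide-binding motif in proteins was not run, and Gm17757 had no match by symbol.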

Additional observations from a re-analysis of the deposited data

How the results depend on the processing

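The fits were repeated with other pseudocounts, filters, scalings and variance priors, a covariate, a block and each sample left out, and the sum of Gvin1 and Gm4070 was added after the data were seen. Where a value moved, the cause was not tested. The number of genes past the threshold was 165 and became 104 with a prior variance without trend and 57 with log2 Gm42418 as a covariate. It was 127 with the replicate block, which has 1 residual degree of freedom. Same-numbered WT and Dock3 KO samples had deviations from their group means that correlated at 0.0649 (number 1) and 0.00663 (number 3) across genes, so shared numbers were not taken as pairs. With 1 sample left out at a time the number of genes ranged from 100, without WT replicate 4, to 159, and it was 102 without Dock3 KO replicate 2. Rescaling to the same total moved the share of higher calls from 43.0% to 23.2% and the median of all genes to -0.28.

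Other interferon-inducible GTPases past the threshold numbered 1 and became 2 without the filter on low values, 0 with a minimum mean of 50, where Gm18853 is no longer tested, 0 with the Gm42418 covariate and 0 with the replicate block. They ranged from 0 to 2 across the fits that left out 1 sample. The counts of the other 4 pathway lists were 0 under every alternative run. The members' median of -0.17 became -0.44 when rescaled, which is -0.16 relative to the median of all genes, and 0.067 with the Gm42418 covariate, where Gbp7, Irgm2 and Iigp1 stood above 0. It ranged from -0.21 to -0.06 with 1 sample left out. The log2 difference of Gvin1 ran from 4.70 with a pseudocount of 10 to 7.37 with a pseudocount of 0.1 where it was a row of its own.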
